A study of Homo sapiens with 14 samples.

Results

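The caspases CASP2, CASP6, CASP8 and CASP9, the apoptosome scaffold APAF1 and the inhibitors CFLAR and XIAP were followed across 14 arrays of U2OS cells in which E2F1 could be switched on and FOXO1 and FOXO3 could be knocked down. They are 7 of the 11963 genes that the array annotation names. All probe sets paired with them were taken, which gave 27 of the 22277 on the array, and none of the 27 named several genes. CFLAR had 11 of them, CASP2 had 5, APAF1 had 3, and CASP6, CASP8, CASP9 and XIAP had 2 each. A total of 14 had a mean log2 signal above the 40th percentile of the probe sets that name 1 gene (a signal of 79.1), and the other 13, including both of XIAP and 7 of CFLAR, are called dim here.

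U2OS is a human osteosarcoma line, and every sample was the subline that stably expresses ER-E2F1, in which an estrogen receptor domain joined to E2F1 keeps this transcription factor inactive until 4-hydroxytamoxifen (OHT) is added. Cells received a lentivirus with the hairpin shFOXO33, the hairpin shFOXO707, both of which target FOXO1 and FOXO3 together, or a scrambled hairpin (sh-scr). At 24 h after infection they were placed in serum-free medium for 24 h followed by 6 h in 20 nM OHT or none. With OHT there were 2 arrays of shFOXO33, 2 of shFOXO707 and 4 of scrambled cells, and without OHT there were 1, 1 and 4. All groups carried ER-E2F1, a virus and serum starvation. No array had OHT without ER-E2F1, so an effect of OHT itself and one of E2F1 cannot be told apart. "Knockdown cells" means both hairpins pooled. Whether the arrays of a group came from separate cultures is not labelled. The p-values thus rest on the spread between arrays, and within a hairpin and treatment that spread may be technical. In fits with the hairpins pooled, the difference between hairpins also enters the spread. All groups share that spread, so it bears on the tests within scrambled cells too.

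Apoptosis runs along 2 main routes. In the mitochondrial route, cytochrome c released into the cytosol binds APAF1, which assembles into the apoptosome and activates the initiator caspase-9. In the death receptor route, the adaptor FADD recruits the initiator caspase-8, and the caspase-8 homologue encoded by CFLAR (c-FLIP) competes for the same complex. Caspase-2 is an initiator activated on a platform of PIDD1 and CRADD, caspase-6 is an effector that cleaves nuclear lamins, and XIAP binds and inhibits active caspases. APAF1 and several caspase genes have been described as genes that E2F1 activates, and FOXO factors are known to activate genes that promote cell death.

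Of the 7 genes, RefSeq (GRCh38.p14) gave 16 promoter windows, each 250 bases before to 50 bases after an annotated start. They are shown for APAF1 and CASP8, which moved most in opposite directions with OHT, and for the CASP2 window with the only match to an E2F motif. The CASP8 window is the most upstream of 3. Capitals mark a match, and all are written 5′ to 3′ on the plus strand, which is the strand of all 3 genes.
APAF1, chr12:98645040-98645339: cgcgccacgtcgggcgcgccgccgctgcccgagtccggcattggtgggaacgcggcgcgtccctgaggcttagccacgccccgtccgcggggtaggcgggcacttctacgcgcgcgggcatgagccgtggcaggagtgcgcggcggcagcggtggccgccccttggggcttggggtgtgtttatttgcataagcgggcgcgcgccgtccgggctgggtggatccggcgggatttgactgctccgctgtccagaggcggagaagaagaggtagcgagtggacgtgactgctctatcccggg
CASP8, chr2:201233213-201233512: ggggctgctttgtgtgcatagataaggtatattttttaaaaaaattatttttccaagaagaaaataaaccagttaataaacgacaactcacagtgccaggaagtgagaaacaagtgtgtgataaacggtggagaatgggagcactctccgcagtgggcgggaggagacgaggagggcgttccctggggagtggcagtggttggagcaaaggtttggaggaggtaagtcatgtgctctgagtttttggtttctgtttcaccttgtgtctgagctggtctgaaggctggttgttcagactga
CASP2, chr7:143288101-143288400: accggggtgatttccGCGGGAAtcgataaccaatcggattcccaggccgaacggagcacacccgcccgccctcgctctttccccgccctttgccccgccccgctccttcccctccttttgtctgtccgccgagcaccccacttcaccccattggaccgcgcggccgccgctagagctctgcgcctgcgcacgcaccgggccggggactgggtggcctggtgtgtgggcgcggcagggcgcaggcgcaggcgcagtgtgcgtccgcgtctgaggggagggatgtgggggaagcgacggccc
The E2F words TTTGGCGC, TTTGCCGC, TTTCGCGC and TTTCCCGC, searched on both strands, occurred in 0 of the 16 windows, against 3.31% of 35116 windows of all RefSeq genes. The same words without their first T, which overlap the longer ones, occurred in 1 of the 16, against 13.0% of all windows. The match, GCGGGAA, begins 235 bases before the CASP2 start. The FOXO word GTAAACA occurred in 0 of the 16, against 3.42% of all windows. The APAF1 window was 71.3% G and C, both CASP9 windows were 71.3% and 76.0%, and the 3 CASP8 windows were 43.0% to 54.3%. CFLAR and CASP8 lie on chromosome 2 on the same strand. Their most upstream windows were 114.7 kb apart, with 1 protein-coding gene, CASP10, between them.

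All arrays had the same trimmed mean signal of 500, but the median signal was 117 ± 1.85 with OHT (SD, n = 8) and 139 ± 2.49 without (SD, n = 6). Array pairs of the same group correlated at 0.985 to 0.987, pairs of shFOXO707 with shFOXO33 under the same treatment at 0.972 to 0.974, all other pairs at 0.927 to 0.980, and no 2 arrays were identical. The ACTB 3′ to 5′ ratio, a sign of RNA quality, was 1.996 ± 0.061 in shFOXO707 cells with OHT (SD, n = 2) and 1.49 to 1.74 on the other 12 arrays. With OHT, FOXO1 averaged 163 in shFOXO33, 236 in shFOXO707 and 501 in scrambled cells, and FOXO3 averaged 307, 809.6 and 1793 in the same order, so shFOXO33 left less of both. Without OHT the FOXO1 signal was 49.2, 39.1 and 103 in that order. Limma called FOXO1 and FOXO3 higher with OHT in both scrambled and knockdown cells, where 16.2% and 12.4% of all probe sets were. FOXO1 in knockdown cells with OHT was thus above that in scrambled cells without OHT. E2F1 was called in neither (-0.20, adjusted p = 0.144 in scrambled and -0.18, adjusted p = 0.321 in knockdown cells). Of FOXO1, FOXO3 and E2F1, 2 were called lower in knockdown than in scrambled cells with OHT and only 1 without OHT. Without OHT at most 1 of FOXO1 and FOXO3 was thus called lower. Of 10 listed osteoblast markers, 8 were analysed and 6 were above the 40th percentile, with COL1A1 and SPARC bright and RUNX2 and IBSP dim. Their summed signal with OHT was 9266 to 9443 in shFOXO33, 15917 to 17011 in shFOXO707 and 17019.9 to 17833 in scrambled cells. SPARC differed by -3.43 on the log2 scale between shFOXO33 and scrambled cells (limma adjusted p = 3.2e-14). It was the only 1 of the 8 called lower there, and 1 was called higher, where 11.6% and 13.7% of all probe sets were. The median difference of the 8 was 0.12, against 0.05 over all probe sets, so the lower sum did not extend to the list as a whole. Of 5 epithelial markers 3 were above the percentile (KRT8, KRT18 and EPCAM), and of 3 analysed blood markers none was. The summed epithelial signal with OHT was 5868 to 6221 in shFOXO33, 3469 to 3556 in shFOXO707 and 5154 to 5436 in scrambled cells. Between shFOXO707 and scrambled cells with OHT, limma called 1 of the 5 higher and 2 lower, where 11.2% and 9.28% of all probe sets were. Of 3 neural markers 2 were above it, with a summed signal of 4512 to 4700 in scrambled cells with OHT.

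**Figure D1:**
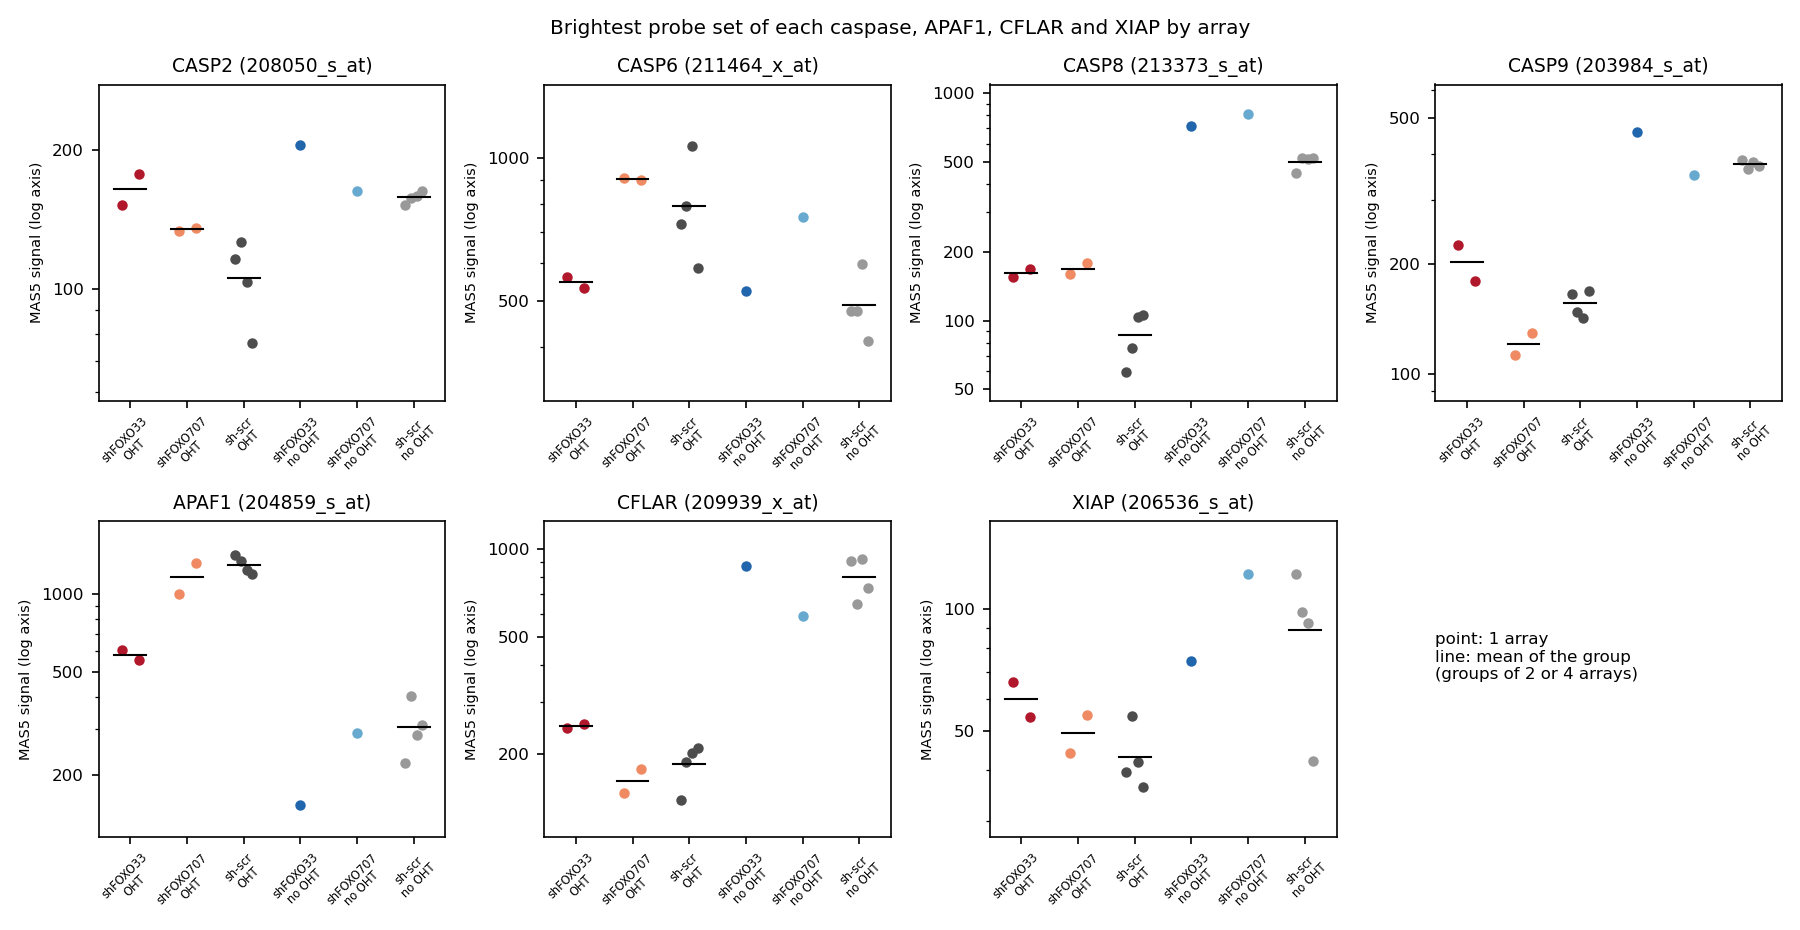
MAS5 signal (log axis) of the brightest probe set of each of the 7 genes on each array, by hairpin and treatment; each point is 1 array and each line the mean of a group of 2 or 4 arrays. APAF1 was higher and CASP8, CASP9 and CFLAR were lower with OHT in all hairpin groups, and the CASP8 points of both hairpins lie above those of scrambled cells under both treatments.

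OHT, which switches on E2F1, moved APAF1 and its partner CASP9 in opposite directions in scrambled cells: all 3 APAF1 probe sets rose, while both of CASP9, both of CASP8 and 9 of the 11 of CFLAR fell. In all, 4 member probe sets were called higher and 17 lower at a limma adjusted p under 0.05 over all 22215 probe sets tested, which is 77.8% of the 27. The background was broad, since 45.4% of all probe sets were called (16.2% higher and 29.2% lower). That split depended on the scaling: with each array centred on its median, 5291 probe sets were called higher and 4000 lower, against 3604 and 6485 as deposited. The median log2 difference was -0.75 over the 27 members and -0.14 over all probe sets. Log2 differences here are of (signal + 16), with OHT minus without OHT, and understate changes of dim probe sets. In these bulk samples fewer cells with an RNA and less of it per cell cannot be told apart.

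For APAF1, the brightest probe set (204859_s_at) read 1413, 1331, 1231 and 1195 in scrambled cells with OHT, against 223, 403, 286 and 310.3 without OHT. No array of either group reached the range of the other, and the mean with OHT was 4.23 times that without. The log2 difference was 2.05 (SE 0.26, adjusted p = 1.01e-05). The second probe set (211554_s_at) read 560.4, 435, 483 and 501 with OHT, against 154, 174, 190.2 and 216 without, a difference of 1.36 (SE 0.18, adjusted p = 2.23e-05). The third, dim one (211553_x_at) rose by 1.17 (SE 0.19, adjusted p = 0.000137). All 3 probe sets of the scaffold thus moved the same way.

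CASP9, the caspase that APAF1 activates, moved the other way. Its brighter probe set (203984_s_at) read 166, 147, 142 and 169 in scrambled cells with OHT, against 384, 364, 379 and 371 without OHT. The groups were far apart, and the mean with OHT was 41.7% of that without, a log2 difference of -1.19 (SE 0.16, adjusted p = 3.01e-05). The other probe set (210775_x_at) read 37.9, 72.7, 67.9 and 74.9 with OHT, against 223, 189.8, 218 and 197 without. It differed by -1.52 (SE 0.25, adjusted p = 0.000172).

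CASP8, the initiator of the death receptor route, had the greatest fall of the 27 probe sets. The bright probe set (213373_s_at) read 59.4, 75.9, 104 and 106 in scrambled cells with OHT, against 444, 519, 516 and 517 without OHT. Every array with OHT was far below every array without, and the mean with OHT was 17.3% of that without. The log2 difference was -2.36 (SE 0.14, adjusted p = 4.45e-09). The dim probe set (207686_s_at) read 9.38, 19.1, 44.4 and 31.7 with OHT, against 70.7, 93.8, 93.5 and 68.6 without, and fell by 1.28 (adjusted p = 0.000437).

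CFLAR, the competitor of caspase-8, fell on 9 of its 11 probe sets, with log2 differences between -2.03 and -0.75. The brightest (209939_x_at) read 138, 187, 201 and 209.6 in scrambled cells with OHT, against 908, 648, 921 and 733 without OHT. The mean with OHT was 22.9% of that without, and the groups did not overlap (-2.03, SE 0.19, adjusted p = 4.51e-07). The second brightest (210563_x_at) read 181, 159, 162 and 191 with OHT, against 688, 694, 739 and 666 without, a difference of -1.91 (SE 0.11, adjusted p = 4.86e-09). The 2 CFLAR probe sets that were not called, 217654_at and 214618_at, were the dimmest, with 27.9 as their highest signal on any array. They differed by 0.24 (adjusted p = 0.554) and -0.00 (adjusted p = 0.994). Of the 27 member probe sets 12 end in _x_at, a suffix that marks probes that can also bind other transcripts, and CFLAR probe sets may share sequence, so they are not independent measurements of the gene.

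The other initiator, CASP2, and the inhibitor XIAP were lower by less. The brightest CASP2 probe set (208050_s_at) read 116, 127, 104 and 76.5 in scrambled cells with OHT, against 152, 157, 159 and 163 without OHT. The groups did not overlap, and the log2 difference was -0.53 (SE 0.14, adjusted p = 0.00644). CASP2 209811_at and 34449_at differed by -0.41 (adjusted p = 0.0317) and -0.46 (adjusted p = 0.0369), and the 2 dim CASP2 probe sets were not called. These 3 CASP2 calls depended on the scaling of the arrays. With each array centred on its median, the median difference of all probe sets was 0.09 instead of -0.14, and the 3 CASP2 differences were -0.31, -0.19 and -0.24 (adjusted p = 0.0996, 0.34 and 0.292). Quantile normalization also ended them (adjusted p = 0.105, 0.363 and 0.173). The call of 209811_at was also lost without scrambled no-OHT replicate 2, 3 or 4 or scrambled OHT replicate 1 or 3 (adjusted p = 0.0541 to 0.0912). That of 34449_at was lost without scrambled no-OHT replicate 1, 2 or 3 or scrambled OHT replicate 2 or 3 (adjusted p = 0.06 to 0.116).

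XIAP was measured only by dim probe sets. The brighter (206536_s_at) read 39.5, 54.4, 41.8 and 36.4 in scrambled cells with OHT, against 122, 98.7, 92.5 and 42.1 without OHT. The fourth array without OHT lay inside the range with OHT. The difference was -0.77 (SE 0.24, adjusted p = 0.0157), and it was not called with median centring (-0.54, adjusted p = 0.0763) or without the first scrambled array without OHT (-0.61, adjusted p = 0.0572). XIAP 206537_at differed by -0.43 (adjusted p = 0.0557).

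CASP6, an effector caspase, was the only caspase gene of the 4 with a probe set called higher. The brighter probe set (211464_x_at) read 726, 794, 1059 and 587 in scrambled cells with OHT, against 476, 475, 599 and 411 without OHT. The lowest array with OHT lay just below the highest without. The difference was 0.65 (SE 0.21, adjusted p = 0.0183), and it was not called without scrambled OHT replicate 3 (0.51, adjusted p = 0.0674) or without scrambled no-OHT replicate 4 (0.58, adjusted p = 0.0575). The other probe set (209790_s_at) read 561, 584, 617 and 558 with OHT, against 419, 491, 458 and 459 without. Its groups did not overlap, but the call was not reached (0.34, adjusted p = 0.17). The shared spread of this fit takes in both hairpins pooled. With OHT the SD on this probe set was 165 over the knockdown arrays and 27.5 over the scrambled arrays. For this comparison 209790_s_at was not followed singly through the alternatives, and the part of the spread in the missed call was not tested.

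**Figure D2:**
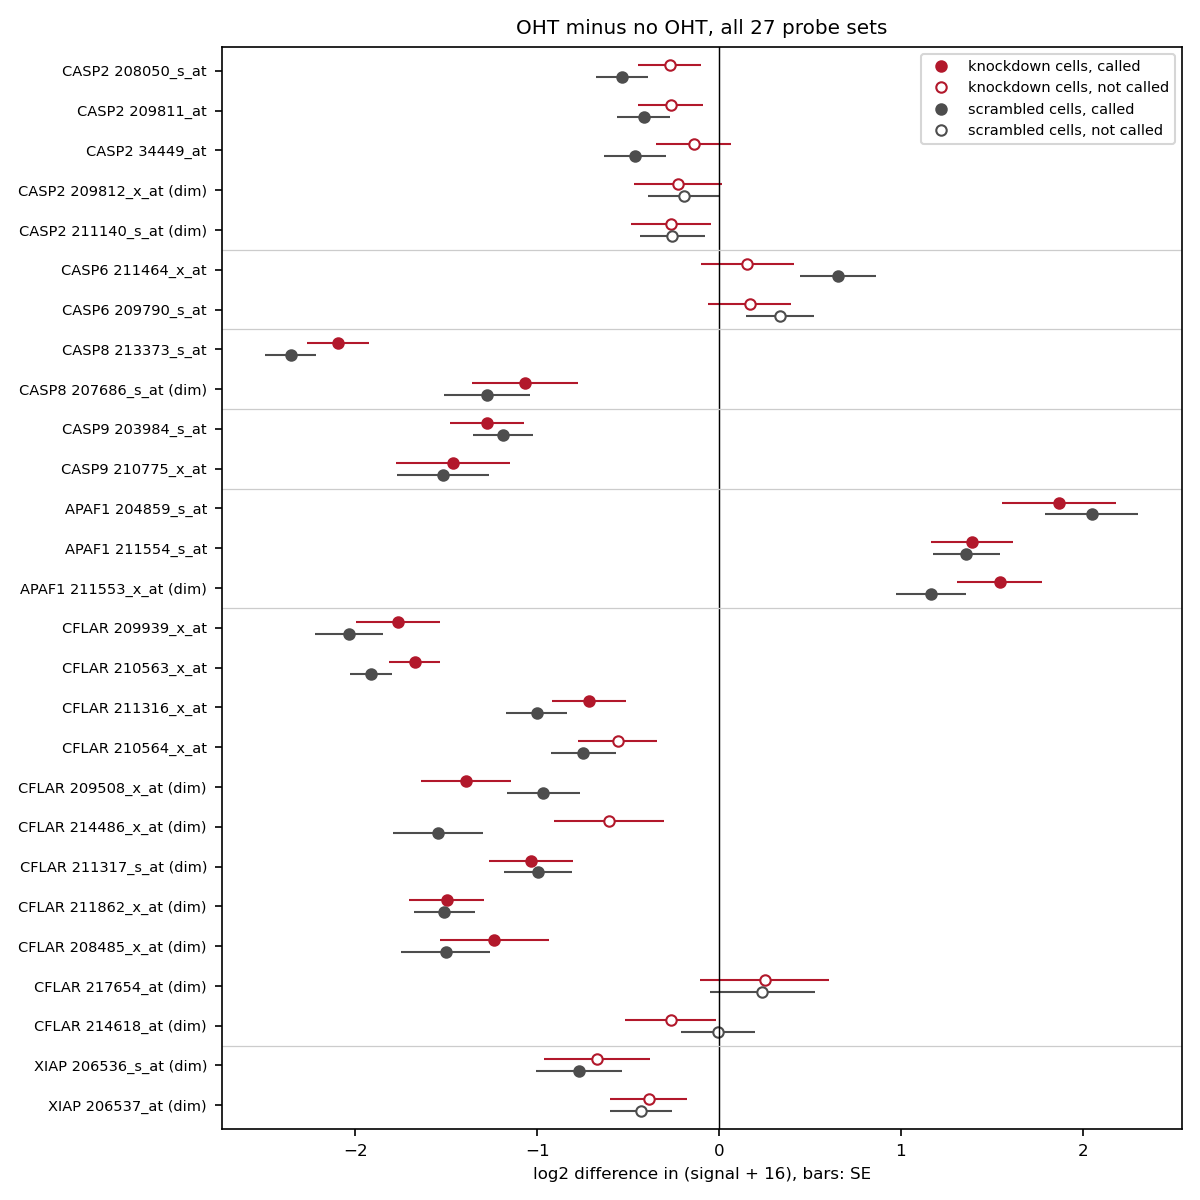
Log2 difference in (signal + 16), OHT minus no OHT, for all 27 probe sets in knockdown cells (red) and scrambled cells (grey); bars are standard errors, filled points are called at an adjusted p under 0.05, and "dim" marks probe sets below the 40th percentile. The APAF1 points lie between 1.17 and 2.05, and those of CASP8 and CASP9 between -2.36 and -1.07, in both kinds of cells.

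In knockdown cells OHT again left APAF1 higher and CASP8, CASP9 and CFLAR lower: 3 member probe sets were called higher and 11 lower, 51.9% of the 27, where 33.8% of all probe sets were called (12.4% higher and 21.4% lower). The median difference was -0.56 over the members and -0.14 over all probe sets. There were only 2 knockdown arrays without OHT, 1 per hairpin. APAF1 204859_s_at read 605 and 555 in shFOXO33 and 997 and 1313 in shFOXO707 cells with OHT, against 153 in shFOXO33 and 289 in shFOXO707 cells without OHT, a difference of 1.87 (SE 0.31, adjusted p = 0.000279). CASP8 213373_s_at read 155 and 168 in shFOXO33 and 160.3 and 179 in shFOXO707 cells with OHT, against 715 and 809 without. It fell by 2.10 (SE 0.17, adjusted p = 3.01e-07).

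CASP9 203984_s_at read 225 and 179 in shFOXO33 and 113 and 129.5 in shFOXO707 cells with OHT, against 459 in shFOXO33 and 350.2 in shFOXO707 cells without OHT. Every knockdown array with OHT was below both without, and the difference was -1.27 (SE 0.20, adjusted p = 0.000174). CFLAR 209939_x_at read 244 and 252 in shFOXO33 and 147 and 177 in shFOXO707 cells with OHT, against 874 and 591 without, a difference of -1.77 (SE 0.23, adjusted p = 2.88e-05). In all, 7 of the 11 CFLAR probe sets fell, with differences between -1.77 and -0.72. The calls of CFLAR 211316_x_at and 211317_s_at were lost without the shFOXO33 array without OHT (adjusted p = 0.157 and 0.0661), and that of 211316_x_at also with median centring (-0.49, adjusted p = 0.0933). The call of the dim CASP8 probe set was lost without the shFOXO707 array without OHT (-0.97, adjusted p = 0.0836). CASP2 208050_s_at (-0.27, adjusted p = 0.269), CASP6 211464_x_at (0.16, adjusted p = 0.697) and XIAP 206536_s_at (-0.67, adjusted p = 0.095) did not pass. The XIAP value was called without scrambled no-OHT replicate 4, which enters only through the shared spread (adjusted p = 0.0249).

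Whether the OHT response differed between knockdown and scrambled cells was tested as the interaction. None of the 27 member probe sets was called by limma, where 0.122% of all probe sets were called (0.0405% higher and 0.081% lower). An unadjusted limma p under 0.05 was found for 1 of the 27 (the dim CFLAR 214486_x_at, 0.94, adjusted p = 0.576) and for 1690 of all 22215 probe sets. For the brightest probe sets, the response in knockdown minus that in scrambled cells was between -0.50 for CASP6 and 0.27 for CFLAR. For APAF1 it was -0.18 (SE 0.40) and for CASP8 0.26 (SE 0.22).

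With OHT present, knockdown cells had more CASP8 RNA than scrambled cells. The bright CASP8 probe set read 155 and 168 in shFOXO33 and 160.3 and 179 in shFOXO707 cells, against 59.4, 75.9, 104 and 106 in scrambled cells. All 4 knockdown arrays were above all 4 scrambled arrays, with a log2 difference of 0.85 (SE 0.14, adjusted p = 0.00143). It was the only call among the 27 (3.70%), where 10.1% of all probe sets were called (6.1% higher and 3.95% lower). The median difference was 0.09 over the members and 0.04 over all probe sets. The scrambled OHT arrays also enter the OHT comparison in scrambled cells, so the fall of CASP8 there and this difference share 4 arrays. The dim CASP8 probe set differed by 0.29 (adjusted p = 0.518). In this fit the 2 arrays of a hairpin count as separate replicates. With 1 averaged value per hairpin the CASP8 difference was the same and the adjusted p was 0.0173.

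Of the other members, APAF1 204859_s_at read 605, 555, 997 and 1313 in knockdown cells with OHT, against 1413, 1331, 1231 and 1195 in scrambled cells. Its pooled difference was -0.65 (SE 0.26, adjusted p = 0.134). When the spread was taken within each hairpin the same difference was called (adjusted p = 0.00232), and it was called without the second shFOXO707 OHT array (-0.88, adjusted p = 0.0295). CASP2 208050_s_at read 152, 178, 134 and 136 in knockdown cells with OHT, against 116, 127, 104 and 76.5 in scrambled cells. The groups did not overlap, and the difference of 0.46 missed the threshold (SE 0.14, adjusted p = 0.0581). It was called within hairpins (adjusted p = 0.0183) and without the second scrambled OHT array (0.54, adjusted p = 0.0446). CASP9 203984_s_at had a pooled difference of 0.00 (SE 0.16) because the hairpins lay on opposite sides of scrambled cells. CASP6, CFLAR and XIAP were between -0.13 and 0.26 on their brightest probe sets.

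Without OHT, none of the 27 probe sets was called by limma between knockdown and scrambled cells, where 3.16% of all probe sets were called (1.76% higher and 1.4% lower). An unadjusted limma p under 0.05 was found for 3 of the 27 and for 3307 of all 22215 probe sets. CASP8 213373_s_at read 715 in shFOXO33 and 809 in shFOXO707 cells, against 444, 519, 516 and 517 in scrambled cells. Both knockdown arrays were above all scrambled arrays, but with 1 array per hairpin the difference of 0.60 missed the threshold (SE 0.17, adjusted p = 0.0836). It was called with the spread taken within 6 groups (adjusted p = 0.0251), with pseudocount 64 (0.55, adjusted p = 0.0289) and with the filter on dim probe sets (adjusted p = 0.0475). It was also called without the first scrambled OHT array (adjusted p = 0.0337), which enters only through the shared spread. APAF1 204859_s_at read 153 in shFOXO33 and 289 in shFOXO707 cells, against 223 to 403 in scrambled cells (-0.47, adjusted p = 0.542).

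**Figure D3:**
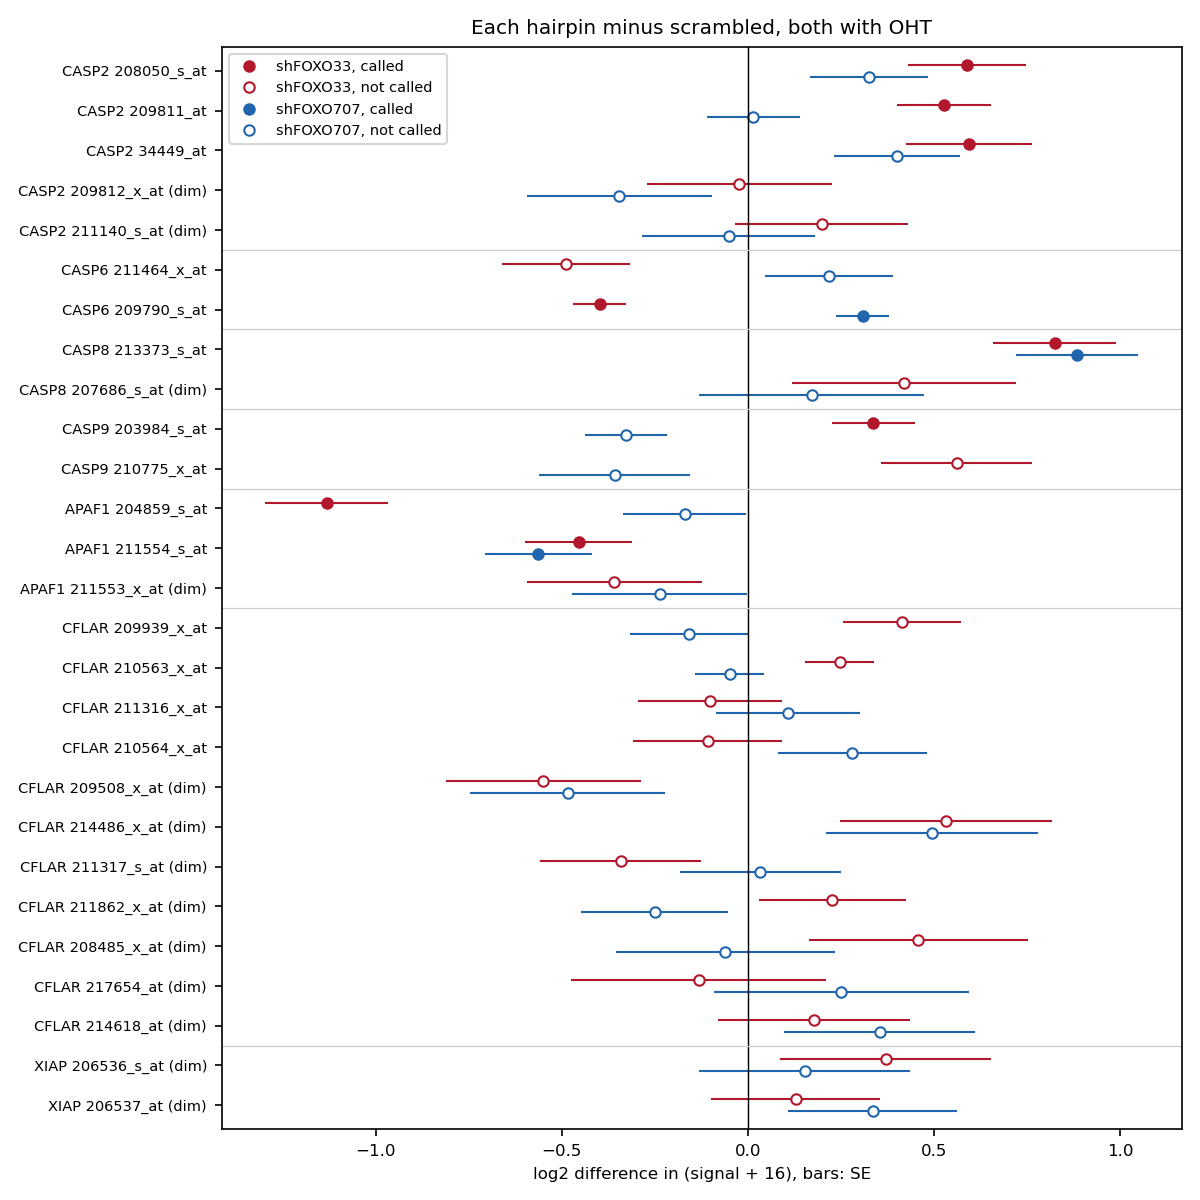
Log2 difference in (signal + 16) of each hairpin minus scrambled cells, both with OHT, for all 27 probe sets; shFOXO33 is red and shFOXO707 blue, bars are standard errors and filled points are called at an adjusted p under 0.05. CASP8 213373_s_at was 0.82 and 0.88 higher with both, while the points of CASP6 and CASP9 lie on opposite sides of 0.

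For each hairpin by itself, CASP8 was higher with both. The brightest probe sets of CASP6, CASP9 and CFLAR had hairpin means on opposite sides of the scrambled mean. Of these, only CASP9 had all arrays of both hairpins outside the scrambled range. The shFOXO707 arrays of CASP6 and CFLAR lay inside it. Against scrambled cells with OHT, shFOXO33 had 5 member probe sets higher and 3 lower (29.6% called, where 25.3% of all probe sets were called, 13.7% higher and 11.6% lower). shFOXO707 had 2 higher and 1 lower (11.1% called, against 20.5% of all, 11.2% higher and 9.28% lower). CASP8 213373_s_at differed by 0.82 with shFOXO33 (adjusted p = 0.00168) and 0.88 with shFOXO707 (adjusted p = 0.00125), and its signals were 187% and 196% of the scrambled mean. The difference between hairpins, shFOXO707 minus shFOXO33, was 0.06 (SE 0.19, adjusted p = 0.883). The scrambled arrays are shared by both hairpin comparisons.

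The direct test between hairpins called 7 member probe sets with OHT, 3 higher and 4 lower in shFOXO707 than in shFOXO33 (25.9%, where 22% of all were called, 11.1% higher and 11% lower). Each group of this test had 2 arrays. APAF1 204859_s_at read 997 and 1313 in shFOXO707 cells, against 605 and 555 in shFOXO33 cells, a difference of 0.96 (SE 0.19, adjusted p = 0.00172). With shFOXO33 it was 44.9% of the scrambled mean (-1.13, adjusted p = 0.000121) and with shFOXO707 89.4% (-0.17, adjusted p = 0.567). The second APAF1 probe set, 211554_s_at, did not follow this split. It read 372 and 289.5 in shFOXO707 and 398 and 317 in shFOXO33 cells, against 435 to 560.4 in scrambled cells. It was lower with both hairpins (-0.56, adjusted p = 0.0111 for shFOXO707 and -0.46, adjusted p = 0.0308 for shFOXO33) and differed between them by -0.11 (adjusted p = 0.733). The first of these calls was lost without shFOXO707 OHT replicate 2 (-0.39, adjusted p = 0.18) and the second without shFOXO33 OHT replicate 2 (-0.30, adjusted p = 0.315) or scrambled OHT replicate 1 or 4 (adjusted p = 0.0773 and 0.059).

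Both CASP6 probe sets were higher in shFOXO707 than in shFOXO33 cells. CASP6 209790_s_at read 706 and 736 in shFOXO707 and 429.8 and 442 in shFOXO33 cells, against 561, 584, 617 and 558 in scrambled cells. The 3 groups did not overlap. The hairpins differed by 0.71 (SE 0.08, adjusted p = 1.42e-05). Against scrambled cells shFOXO707 was 0.31 higher (adjusted p = 0.00586) and shFOXO33 differed by -0.40 (adjusted p = 0.000676). The first of these was lost without shFOXO707 OHT replicate 2 (0.28, adjusted p = 0.068). CASP6 211464_x_at read 908 and 899 in shFOXO707 cells, against 563 and 532 in shFOXO33 cells, and differed by 0.71 too (adjusted p = 0.0186). That call was lost without any 1 of the 4 hairpin arrays with OHT (adjusted p = 0.0638 to 0.096). Against scrambled cells shFOXO33 differed by -0.49 on this probe set (adjusted p = 0.052), and median centring brought it past the threshold (adjusted p = 0.0395). So did leaving out scrambled OHT replicate 4 (-0.62, adjusted p = 0.00846) or scrambled no-OHT replicate 3 or 4 (adjusted p = 0.0396 and 0.0478). Without OHT the same order was seen on 209790_s_at, with 671 in shFOXO707 and 367 in shFOXO33 cells, against 419 to 491 in scrambled cells, on 1 array per hairpin, and this order was not tested.

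CASP9 had the opposite order. CASP9 203984_s_at read 113 and 129.5 in shFOXO707 and 225 and 179 in shFOXO33 cells with OHT, against 166, 147, 142 and 169 in scrambled cells. The scrambled arrays lay between the hairpins. The hairpins differed by -0.66 (SE 0.13, adjusted p = 0.00137). Against scrambled cells, shFOXO33 was 0.34 higher (adjusted p = 0.0374) and shFOXO707 -0.33 (adjusted p = 0.0506), and both of these values lay close to the threshold. The shFOXO33 call was lost without shFOXO33 OHT replicate 1 (0.19, adjusted p = 0.412), without scrambled OHT replicate 2 or 3 (adjusted p = 0.077 and 0.0823) and with median centring (0.30, adjusted p = 0.0614) or quantile normalization (0.31, adjusted p = 0.0597). The shFOXO707 value was called with both of these scalings (adjusted p = 0.0336 and 0.0367) and without scrambled OHT replicate 3 (-0.37, adjusted p = 0.0403) or either shFOXO33 OHT array (adjusted p = 0.038 and 0.0367). The second CASP9 probe set, 210775_x_at, read 50.5 and 39.3 in shFOXO707 cells, against 109 and 89.1 in shFOXO33 cells, a difference of -0.92 (SE 0.23, adjusted p = 0.0102). It was lost without shFOXO33 OHT replicate 1 or shFOXO707 OHT replicate 2 (adjusted p = 0.0875 and 0.0837).

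CASP2 was higher with shFOXO33 than in scrambled cells on all 3 probe sets that were not dim. The differences were 0.59 for 208050_s_at (adjusted p = 0.0131), 0.53 for 209811_at (adjusted p = 0.00603) and 0.59 for 34449_at (adjusted p = 0.0181). With shFOXO707 they were 0.33, 0.01 and 0.40, and none was called. The hairpins differed on 209811_at, which read 109 and 119 in shFOXO707 cells, against 169 and 169.8 in shFOXO33 cells (-0.51, adjusted p = 0.0196). That call was lost without either shFOXO33 OHT array or shFOXO707 OHT replicate 1 (adjusted p = 0.0814 to 0.112). The shFOXO33 call of 208050_s_at was lost without shFOXO33 OHT replicate 2 (0.49, adjusted p = 0.138), and that of 34449_at without either shFOXO33 OHT array (adjusted p = 0.0963 and 0.095). On the arrays with OHT numbered 1 and 2, all 3 shFOXO33 calls were lost. In the order above, the limma adjusted p was 0.152, 0.0805 and 0.118 with a replicate block and 0.131, 0.0611 and 0.0896 without it.

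Among the inhibitors, only CFLAR 209939_x_at differed between hairpins. It read 147 and 177 in shFOXO707 cells, against 244 and 252 in shFOXO33 cells (-0.57, SE 0.18, adjusted p = 0.0365). The call was lost without any 1 of the 4 hairpin arrays with OHT (adjusted p = 0.052 to 0.214). The other 10 CFLAR probe sets and both of XIAP were not called, and against scrambled cells no CFLAR or XIAP probe set was called with either hairpin. The nearest were 210563_x_at and 209939_x_at with shFOXO33, at 0.25 (adjusted p = 0.0674) and 0.41 (adjusted p = 0.0739). For 209939_x_at, the filter on dim probe sets gave an adjusted p of 0.0398. The hairpin groups also differed, as given above, in SPARC, the summed epithelial markers, FOXO1, FOXO3 and the ACTB 3′ to 5′ ratio. The part of these in the differences was not tested.

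**Figure D4:**
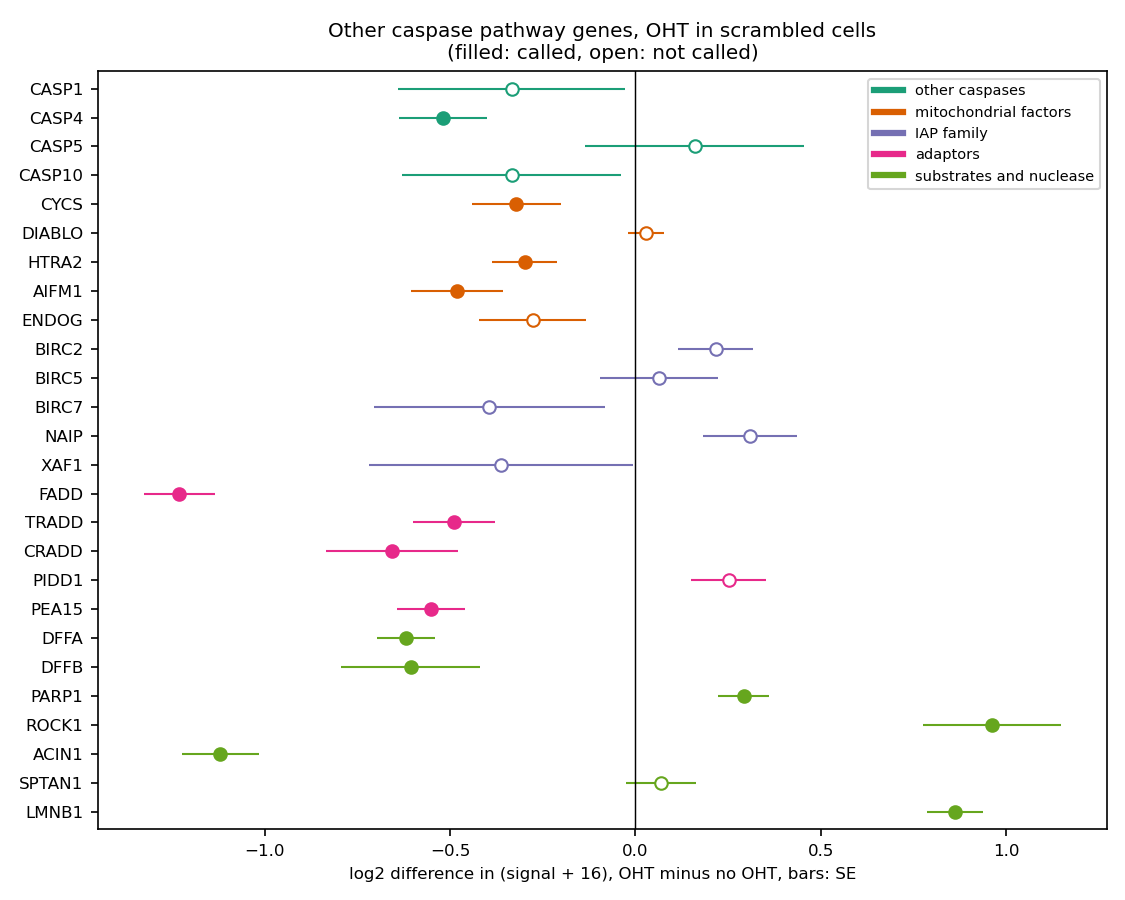
Log2 difference in (signal + 16), OHT minus no OHT in scrambled cells, for the brightest probe set of 26 other genes of the pathway, coloured by group; bars are standard errors, filled points are called at an adjusted p under 0.05 and open points are not. FADD at -1.23 and ACIN1 at -1.12 were lowest and ROCK1 at 0.96 and LMNB1 at 0.86 highest.

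Other genes of the pathway were read from lists, each gene by its brightest probe set. With OHT in scrambled cells, 4 of 5 analysed adaptors were called lower, where 29.2% of all probe sets were. With median centring it was 2 lower and 1 higher, since TRADD and CRADD lost their calls and PIDD1 gained one. FADD, the adaptor that brings caspase-8 to death receptors, averaged 484 ± 31.5 with OHT, against 1157 ± 56.3 without (SD, n = 4 each; -1.23, adjusted p = 8.2e-08). CRADD (-0.66), PEA15 (-0.55) and TRADD (-0.49) also fell. PIDD1, the partner of CRADD in the caspase-2 platform, had 0.25 (adjusted p = 0.057). The adaptors' median was -0.55, against -0.14 over all probe sets. RIPK1 and RIPK3 were not analysed here.

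Of 5 mitochondrial factors, 3 were called lower, where 29.2% of all probe sets were: AIFM1 (-0.48), CYCS, which encodes cytochrome c (-0.32), and HTRA2 (-0.30). DIABLO (0.03) and ENDOG (-0.28) were not called. With median centring none of the 5 was called lower and DIABLO was called higher (0.26, adjusted p = 0.0012). None of 5 analysed inhibitor-of-apoptosis genes or partners passed (BIRC2, BIRC5, BIRC7, NAIP and XAF1, between -0.39 and 0.31), and BIRC3 and BIRC6 were not analysed here. Of the other caspases CASP4 fell (-0.52, adjusted p = 0.0022), and CASP1, CASP5 and CASP10 did not pass and were dim. CASP10, the gene between CFLAR and CASP8, had -0.33 (adjusted p = 0.4).

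The caspase substrates and the nuclease split. ROCK1, a kinase that caspases activate by cleavage, rose by 0.96 (adjusted p = 0.00058). LMNB1, a nuclear lamin, averaged 5475 with OHT, against 3014 without, and rose by 0.86 (adjusted p = 2.5e-07), and PARP1 rose by 0.29. ACIN1 fell by 1.12 (adjusted p = 4.5e-07), and DFFA and DFFB, the inhibitor and the nuclease that cuts DNA in dying cells, fell by 0.62 and 0.61. SPTAN1 had 0.07. The group's median was 0.07. Median centring moved all differences with OHT in scrambled cells by 0.23 on the log2 scale, and the pathway calls were checked under it and under quantile normalization. Both scalings ended the calls of CASP4, CYCS, AIFM1, TRADD, CRADD and DFFB, and median centring ended that of HTRA2. The calls of FADD, PEA15, DFFA, ACIN1, PARP1, ROCK1 and LMNB1 were kept in the same direction under both. Calls of a rise were gained by NAIP and PIDD1 under both, and by DIABLO (0.26), BIRC2 (0.44) and SPTAN1 (0.30) under median centring.

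In knockdown cells, OHT left FADD (-0.95), ACIN1 (-0.75) and DFFA (-0.52) lower, and PIDD1 (0.72), LMNB1 (1.02), ROCK1 (0.76) and PARP1 (0.29) higher, under all 3 scalings. TRADD (-0.48), AIFM1 (-0.52), HTRA2 (-0.32), CASP4 (-0.53) and CASP10 (-1.10) were also called lower, and both other scalings ended those 5 calls. NAIP gained a call of a rise under both, and DIABLO (0.28), BIRC2 (0.44) and SPTAN1 (0.34) gained one under median centring. PEA15 gained a call of a fall under quantile normalization (-0.33, limma adjusted p = 0.0176). With OHT, knockdown cells had more PEA15, a protein that binds FADD and caspase-8, than scrambled cells (0.36, adjusted p = 0.023), and more ACIN1 (0.53, adjusted p = 0.0048). PEA15 was the only call among 5 adaptors and ACIN1 the only one among 7 substrate and nuclease genes. The other pathway lists had none, where 10.1% of all probe sets were called. Without OHT, PIDD1 was lower in knockdown cells (-0.54, adjusted p = 0.031). It was the only call in the pathway lists, where 3.16% of all probe sets were called. With OHT the hairpins lay on opposite sides of scrambled cells for CYCS and for BIRC5, which encodes survivin. CYCS averaged 8544 ± 233 in shFOXO707 and 5758 ± 165 in shFOXO33 cells (SD, n = 2 each), against 6745 ± 133 in scrambled cells (SD, n = 4). BIRC5 averaged 1550.5 ± 107 and 2313 ± 109 in the same hairpins, against 1797 ± 35.2. The hairpin differences, shFOXO707 minus shFOXO33, were 0.57 for CYCS (adjusted p = 1.9e-07) and -0.57 for BIRC5 (adjusted p = 1e-05). ROCK1 was lower with shFOXO33 than in scrambled cells (-0.92, adjusted p = 3.5e-09). With shFOXO707 both arrays were also below all scrambled arrays, at -0.13 (adjusted p = 0.062), and median centring called it (-0.16, adjusted p = 0.0379). The hairpins differed by 0.79 (adjusted p = 7.8e-08).

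Over the 14 arrays, the members that moved most with OHT followed one another. As a description over the same arrays, with no test, the brightest probe sets of CASP9 and CFLAR correlated at 0.96, CASP8 and CFLAR at 0.91 and APAF1 and CFLAR at -0.95. The most like other genes by Pearson's r over the 14 arrays were AUNIP (0.990), IGSF3 (0.987) and FRYL (0.986) for APAF1, TRMT13 (0.991), MSRB2 (0.991) and CHD9 (0.990) for CASP8, and KLHDC10 (0.987), MRE11 (0.986) and WASHC5 (0.985) for CASP9. For CFLAR they were MRPS33 (0.992), RHOBTB3 (0.990) and FAM13A (0.989). For CASP2 the first was SKA1 (0.969), and for CASP6 and XIAP no gene was that close, with ENPP1 at 0.874 and CUEDC2 at 0.904. These values share the step between arrays with and without OHT, in which 45.4% of all probe sets were called in scrambled cells.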

How the data were processed

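The authors deposited 1 linear signal intensity per probe set and array, and the submitters' processing notes name MAS5, without a version. All 14 arrays entered. Groups came from the titles. Of 22277 probe sets, 62 controls were left out; 19064 of the rest named 1 gene, and 19052 symbols were updated with RefSeq (GRCh38.p14). The annotated members and the lists were chosen with earlier results of these data known. Differences of log2(signal + 16) were tested with limma 3.58.1 in R 4.3.3 (lmFit, eBayes with a trend), two-sided, with Benjamini-Hochberg adjustment over 22215 probe sets, in 4 groups with hairpins pooled or, for single hairpins, 6 groups. The code was tested on simulated data. A gene's lead probe set has the highest mean. Alternatives changed the filter, pseudocount, scaling, variance prior, grouping, single arrays and a replicate block. Deviations of same-numbered arrays correlated at -0.061 to 0.064 (14 pairs), so numbers were not taken to pair arrays. Array number limits the precision.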

Additional observations from a re-analysis of the deposited data

Results flagged for a closer look

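With OHT, 7 member probe sets differed between the hairpins in the direct test, shFOXO707 minus shFOXO33 (25.9%, where 22% of all probe sets were called). The calls of CASP2 209811_at, CASP6 211464_x_at, CASP9 210775_x_at and CFLAR 209939_x_at were lost when certain single arrays were left out, as given above. The log2 differences were -0.51 for CASP2 209811_at, 0.71 for CASP6 211464_x_at, 0.71 for CASP6 209790_s_at, -0.66 for CASP9 203984_s_at, -0.92 for CASP9 210775_x_at, 0.96 for APAF1 204859_s_at and -0.57 for CFLAR 209939_x_at, with limma adjusted p-values of 0.0196, 0.0186, 1.42e-05, 0.00137, 0.0102, 0.00172 and 0.0365.

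Samples far from their group were looked for in 54 groups of 4 arrays, and 2 were found, where chance gives about 2.7 at 1 in 20. The dim CASP2 211140_s_at read 9.13 in scrambled OHT replicate 2 and 2.27 to 3.29 in the other 3. CASP8 213373_s_at read 444 in the first scrambled array without OHT and 516 to 519 in the other 3.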

How the results depend on the processing

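All 3 APAF1, both CASP8, both CASP9 and the 2 brightest CFLAR calls with OHT in scrambled cells kept their direction and call under all alternatives that tested them, and no called difference reversed. The filter on low values left out the dim ones, and 1 probe set per gene left out all but the brightest of each gene. Leaving out 1 array in turn gave 3 to 4 members higher and 15 to 17 lower with OHT in scrambled cells, and 3 higher and 9 to 12 lower in knockdown cells. Over all 26 alternatives, some of which test fewer members, the scrambled counts were 2 to 5 higher and 4 to 18 lower. Knockdown against scrambled cells gave 1 to 2 higher and 0 to 2 lower with OHT and 0 to 1 in each direction without. shFOXO33 gave 3 to 7 higher and 2 to 4 lower, shFOXO707 1 to 2 in each direction, and the hairpin difference 2 to 3 higher and 1 to 4 lower. Median centring changed the calls over all probe sets with OHT in scrambled cells to 5291 higher and 4000 lower, against 3604 and 6485, and quantile normalization to 4257 and 5295.

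The filter on low values, which tests 14 of the members, gave 10 lower with OHT in scrambled and 7 in knockdown cells, 3 higher in knockdown against scrambled with OHT, 1 higher without, 8 higher for shFOXO33 and 2 lower for shFOXO707. With 1 probe set per gene, which tests 6, the counts were 2 higher and 4 lower, 1 higher and 3 lower, 2 higher, 1 higher, 1 higher for shFOXO707 and 2 lower for the hairpin difference. Knockdown against scrambled with OHT gave 3 higher and 2 lower in 6 groups, 5 and 3 with only shFOXO33, and 2 and 2 with only shFOXO707. Without OHT it gave 1 and 1 in 6 groups, 2 lower with only shFOXO33, 1 higher with only shFOXO707 and 1 higher with pseudocount 64. shFOXO707 gave 2 lower with only probe sets naming 1 gene, with pseudocount 1, with median centring and with quantile normalization. The member counts in this section stand without the share of all probe sets called in the same setting. They were not compared with that share.

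The replicate block, on the arrays with OHT numbered 1 and 2, gave 0 higher for knockdown against scrambled (CASP8 1.12, adjusted p = 0.127, and 0.0449 on the same arrays without the block), 2 higher for shFOXO33 and 2 lower for the hairpin difference. The same arrays without the block, an alternative added after seeing the data, gave 2 higher, 0 lower for shFOXO707 and 2 lower.

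With 1 hairpin only, the knockdown cells without OHT are 1 array, which is assumed to vary like the other groups. Values that changed sign had not been called. For knockdown against scrambled cells with OHT, CASP9 203984_s_at was -0.0264 with median centring, -0.0231 with quantile normalization, -0.33 with only shFOXO707 (adjusted p = 0.0408) and -0.000439 on the arrays numbered 1 and 2, with the replicate block and without. With only shFOXO707, CASP6 211464_x_at was 0.22 and CFLAR 209939_x_at -0.16. Without OHT, CFLAR was 0.14 and XIAP 206536_s_at -0.14 with only shFOXO33, and CASP9 -0.093 with only shFOXO707. The interaction was 0.055 for CASP9 with only shFOXO33 and -0.31 for XIAP with only shFOXO707. shFOXO707 against scrambled cells gave 0.00173 for CFLAR on the arrays numbered 1 and 2, with the block and without. With 1 array left out, the OHT response of CASP6 in knockdown cells ranged over -0.10 to 0.41. Knockdown against scrambled cells with OHT ranged over -0.26 to 0.0133 for CASP6 and -0.16 to 0.15 for CASP9, and without OHT over -0.093 to 0.28 for CASP9, -0.42 to 0.14 for CFLAR and -0.14 to 0.47 for XIAP. The interaction ranged over -0.28 to 0.10 for CASP9, -0.60 to 0.25 for APAF1, -0.00943 to 0.54 for CFLAR and -0.20 to 0.40 for XIAP. shFOXO707 against scrambled cells ranged over -0.37 to 0.026 for APAF1, and the hairpin difference over -0.0111 to 0.13 for CASP8. The settings with fewer probe sets or fewer arrays change the counts by their construction, and for the other settings the cause was not tested.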
